A study of Mus musculus with 272 samples.

Results

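The RNA of mouse 2-cell embryos was followed down a sucrose gradient, in 10 fractions from each of 3 gradients lettered A, B and C. These are 30 of the 272 libraries of the series, chosen by their labels: every 2-cell library that carries a fraction number. Within each gradient the mean level over fractions 6 to 10, called the heavy side here, was set against the mean over fractions 1 to 5, the light side, with the sides paired by letter. The labels number the fractions only, so heavy and light follow the convention that numbers run from the top of a gradient to its bottom.

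The series covers 8 stages, from the immature oocyte to the blastocyst, each with 3 gradients and 4 whole-transcriptome pools. About 100 untreated 2-cell embryos went into a gradient, broken with beads in a detergent buffer with cycloheximide, a drug that stalls ribosomes on their messenger RNA. A run of the human line HEK293 was made in parallel to watch the fractionation and is not analysed here. A Smart-seq kit turned the RNA of a fraction into amplified cDNA, which was tagmented and sequenced. Another 4 libraries of the same stage came from pools of 20 embryos without a gradient, and the 30 zygote and 30 4-cell fraction libraries, made in the same way, serve for comparison. The labels give no strain, age or hormone treatment, and they do not say that the gradients came from separate collections of embryos. The p-values therefore measure the spread between these 3 gradients, which may in part be technical. Embryos were pooled, so a smaller number of cells with a transcript and less of it per cell cannot be told apart.

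In a sucrose gradient free RNA and small particles stay near the top, single ribosomal subunits and ribosomes follow, and messenger RNA that carries several ribosomes sediments furthest. The mouse 2-cell embryo still holds a large store of maternal messenger RNA while the major wave of its own genome's transcription begins. Much of that store is kept silent in the oocyte with a short poly(A) tail and is recruited to ribosomes when the tail is lengthened, a step directed by U-rich cytoplasmic polyadenylation elements near the 3′ end, or is removed by the CCR4-NOT deadenylase.

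The values are reads of a gene per 1 M reads of its library (CPM), with no scaling for transcript length, so every fraction weighs the same whatever amount of RNA it held. A difference is heavy minus light on the scale of log2(mean CPM + 1). Fraction 1 was by far the shallowest, with 0.397 to 0.749 M reads in the 3 gradients against 5.79 to 18.4 M in the other 27 libraries, so 1 read was worth 1.33 to 2.52 CPM there. The markers set for the stage were present, with Zscan4d the highest over the 30 libraries (mean of 281 CPM, 1223 in the transcriptomes) and Eif1ad7 the highest in the transcriptomes (1661 CPM, 186 over the 30 libraries). Not all were found in every fraction library: Obox3 was above 0 in 23 of the 30 and Tdpoz4 in 19. The lowest sum of the markers in a library was 9.94 CPM, with a median of 490. Of the markers of other cells, 5 of 12 granulosa and cumulus genes were in the table with a median sum of 0.408 CPM over the 30 libraries. Their highest sum was 160 CPM, and Amhr2 was above 0 in 11 of the 30 libraries and reached 154 CPM. The 6 blastocyst markers were all in the table and summed to a median of 21.2 CPM on the light and 0.185 on the heavy side; Cdx2 was at 0 in all 30 libraries, and Gata6 reached 125 CPM in 1 of them. The summed sperm markers (3 of 7 in the table) had a median of 21.3 CPM on the light and 0.196 on the heavy side, and the summed globin and blood markers (2 of 6) a median of 16.7 and 110. Their part in the results was not tested.

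Agreement between gradients was closer for genes at higher levels. Of 9889 genes tested, the 1407 with a mean of 100 to 500 CPM had a Pearson correlation of the heavy-minus-light difference of 0.487 to 0.581 between pairs of gradients, and the 278 genes from 500 CPM upward one of 0.84 to 0.89. For the 5504 genes from 10 to 100 CPM it was 0.235 to 0.247. These are correlations across genes, which are not replicates, and they describe the 3 gradients. Among the 1685 genes with a mean of at least 100 CPM, libraries of fractions 2 and 3 matched their counterparts in the other gradients with r from 0.731 to 0.793 and those of fractions 6 to 10 with r from 0.33 to 0.453. Fraction 10 of gradient B had the most values of 0, in 25.5% of those 1685 genes, against a median of 5.04% over the 15 heavy libraries.

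With limma 119 of the 9889 genes were called at an adjusted p under 0.05 and a difference of at least 1, which is 1.2% of those tested. The heavy side had 53 of them (0.536%) and the light side 66 (0.667%). Every called gene had a mean of at least 100 CPM. When the fit was restricted to the 1685 genes at that level, 479 were called (28.4%), 229 heavy (13.6%) and 250 light (14.8%), and 116 of the 119 were among them. Without the pairing by letter the first fit called 188 genes, 80 heavy and 108 light. Leaving out gradient B or C lowered the count to 64 or 48. On the reads recovered from the CPM values, edgeR called 0 genes, with 1334 at an unadjusted p under 0.05, and DESeq2 called 2316, 82 of them among the 119. Both of these count models left out fraction 7 of gradient B, which is on the heavy side. Below, "called" refers to the fit over all 9889 genes unless the smaller fit is named. Counts of called list members are to be read beside 1.2% over all genes, or 13.6% heavy and 14.8% light in the smaller fit. The means of the 3 gradients did not overlap between the sides for 28.5% of all genes tested and 46.8% of those with at least 100 CPM, so a lack of overlap was common.

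The 2 sides differed in where their genes peaked. Averaged over gradients, 41 of the 53 heavy calls had their highest share in fraction 9 or 10 and the other 12 in fractions 6 to 8. Of the 66 light calls, 22 peaked in fraction 1, 26 in fraction 2 and 18 in fractions 3 to 5. The peak lies on the called side by construction of the call, but its place within the side does not, and it sets apart 4 kinds of profile: top of the gradient, upper fractions, middle fractions and bottom.

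**Figure D1:**
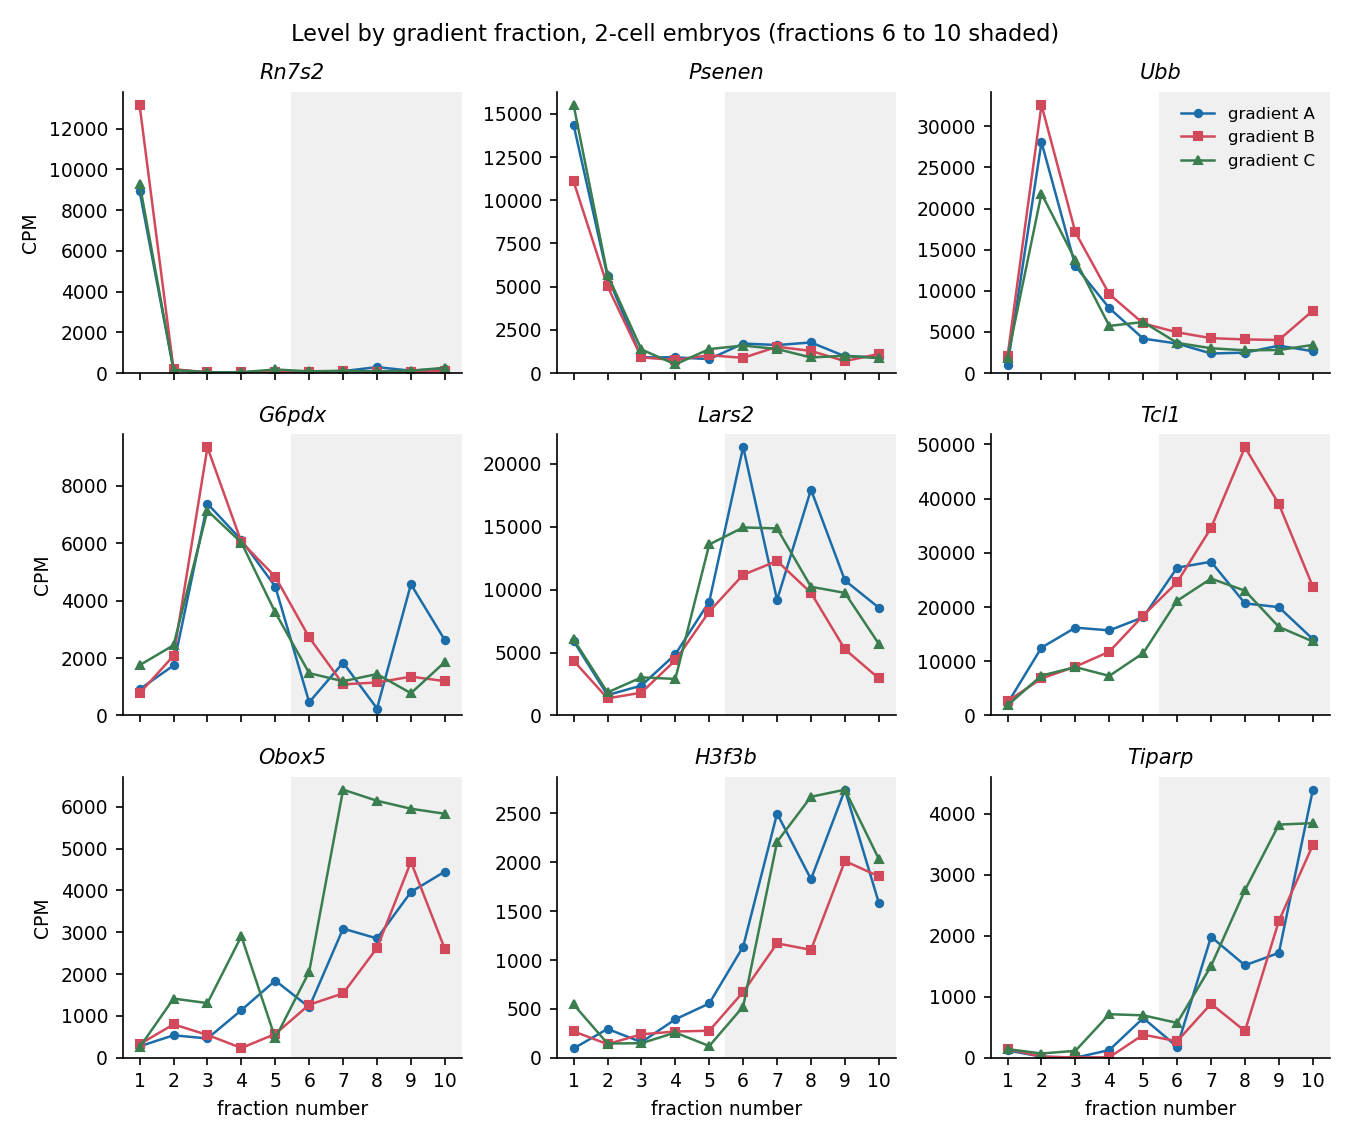
CPM (vertical axis, linear, from 0) in fractions 1 to 10 (horizontal axis) for 9 called genes in the 2-cell gradients A, B and C, one line per gradient; the heavy fractions are shaded. Rn7s2 is found almost wholly in fraction 1, Ubb peaks in fraction 2 and G6pdx in fraction 3 in all 3 gradients, Lars2 is highest in fraction 6 or 7, Tcl1 in fraction 7 or 8, and Tiparp is highest in fraction 10.

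Short stretches of the 3′ ends of called messenger RNAs are shown first, since this is where elements that direct poly(A) tail lengthening lie. They come from GENCODE vM21 on GRCm38, from the transcript with the longest coding sequence, and all lie in the 3′ UTR of the last exon. Capitals mark the cytoplasmic polyadenylation element searched, TTTTAT or TTTTAAT, on the transcript strand within the last 100 bases. The 6 most abundant heavy calls with such an element in that window, by mean CPM and leaving out windows that cross an exon border, were these.
Tcl1 (chr12:105216797-105216826, minus strand): gaatgtgtgggaTTTTATgtggttctattt
Omt2b (chr9:78329555-78329584, plus strand): gggttttaacggTTTTATaataaataaaag
Spin1 (chr13:51152473-51152502, plus strand): tctgtaagtaatTTTTATaattatgatgta
Siah2 (chr3:58674958-58674987, minus strand): acactttaattTTTTAATaaaattttttca
Bcl2l10 (chr9:75351580-75351609, plus strand): ccttaatacatTTTTAATaacttcaaattc
Oog3 (chr4:144157557-144157586, minus strand): taataaatgtgttaactttgTTTTATtttt
In the 4 most abundant light calls without the element the capitals mark the nuclear polyadenylation signal instead, AATAAA or ATTAAA, which most messenger RNAs carry.
Ubb (chr11:62553173-62553202, plus strand): ttaaaaaatgttAATAAAggttttgttgca
Tent5b (chr4:133487905-133487934, plus strand): actcttcccaccAATAAAaaatgtctgcac
G6pdx (chrX:74409488-74409517, minus strand): cccaaccctgccATTAAAtcctcaaaacag
Psenen (chr7:30561869-30561898, minus strand): cccatctgccccAATAAAggaccctaactt
The element was present in the last 100 bases of 15 of 49 heavy calls with a 3′ UTR that long (30.6%) and of 5 of 57 light calls (8.77%). Over all genes tested it was present in 1654 of 8552 (19.3%), and over genes with at least 100 CPM in 285 of 1551 (18.4%). The polyadenylation signal was found in 87.8% of the heavy calls, 86.0% of the light calls and 80.6% of all genes tested. A match describes letters in a window and does not show a working site. The element is rich in T, and GC content moved with the side as well, as given below. When genes with at least 100 CPM were split by GC content into 4 groups of equal size, it was present in 9 of 29 heavy calls, 1 of 9 light calls and 98 of 398 genes of the group lowest in GC. In the group highest in GC it was present in 1 of 3 heavy calls, 3 of 24 light calls (12.5%) and 55 of 385 genes (14.3%).

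The 5 heavy calls with the highest CPM were Tcl1, Tcl1b1, Lars2, Omt2b and Spin1; they and their 5 light counterparts were chosen after their values were seen. Tcl1 encodes a coactivator of the kinase Akt that is abundant in oocytes and early embryos. Its heavy side had 22074, 34279 and 19883 CPM in gradients A, B and C and its light side 12958, 9731 and 7391, a difference of 1.34 ± 0.17 (SE, n = 3 gradients, adjusted p = 0.0141). All heavy values were above all light values, and the gap was narrowest in gradient A, whose light side was the highest. Of the 6 members of the family in the table, 5 were called heavy, and the sixth, Tcl1b5, was called in the fit of genes with at least 100 CPM (1.22 ± 0.31, adjusted p = 0.106 over all genes and 0.0138 in the smaller fit). Tcl1b1, the second of them by CPM, had 12745, 14159 and 12712 CPM on the heavy and 5949, 4186 and 4185 on the light side (1.49 ± 0.13). The median difference of the family was 0.92, 1.79 and 1.55 in gradients A, B and C, against -0.03, -0.10 and -0.20 for all 1685 genes with at least 100 CPM. The Tcl1b genes are near copies of each other, so reads may be shared among them, and the family's count does not stand for 6 separate observations.

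Omt2b and Omt2a, a pair of closely related oocyte transcripts, were both called heavy. Omt2b had 8208, 7713 and 6231 CPM on the heavy side and 2484, 1924 and 2073 on the light side (1.77 ± 0.13, adjusted p = 0.00356). Spin1, a chromatin reader first known as an oocyte protein of the meiotic spindle, had 5394, 5261 and 7959 CPM against 2650, 1867 and 3346 (1.26 ± 0.13, adjusted p = 0.00819). Oog3, an oocyte gene of the leucine-rich repeat family, had 4707, 4070 and 5744 CPM against 1206, 931 and 1943 (1.88 ± 0.16). In each of these the lowest heavy value was above the highest light value. Lars2, which encodes the mitochondrial leucyl-tRNA synthetase, stood apart from them in 2 ways. It was highest in fraction 6 of gradients A and C (21347 and 14948 CPM) and in fraction 7 of gradient B (12282), and its mean of 7870 CPM over the fractions was far above its 146 CPM in the transcriptomes. The log2 ratio of transcriptome to fractions was -5.74 for Lars2, against a median of 0.89 for heavy calls and a value of -6.13 for 18S ribosomal RNA. Whether all reads counted for Lars2 came from its messenger RNA was not tested.

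**Figure D2:**
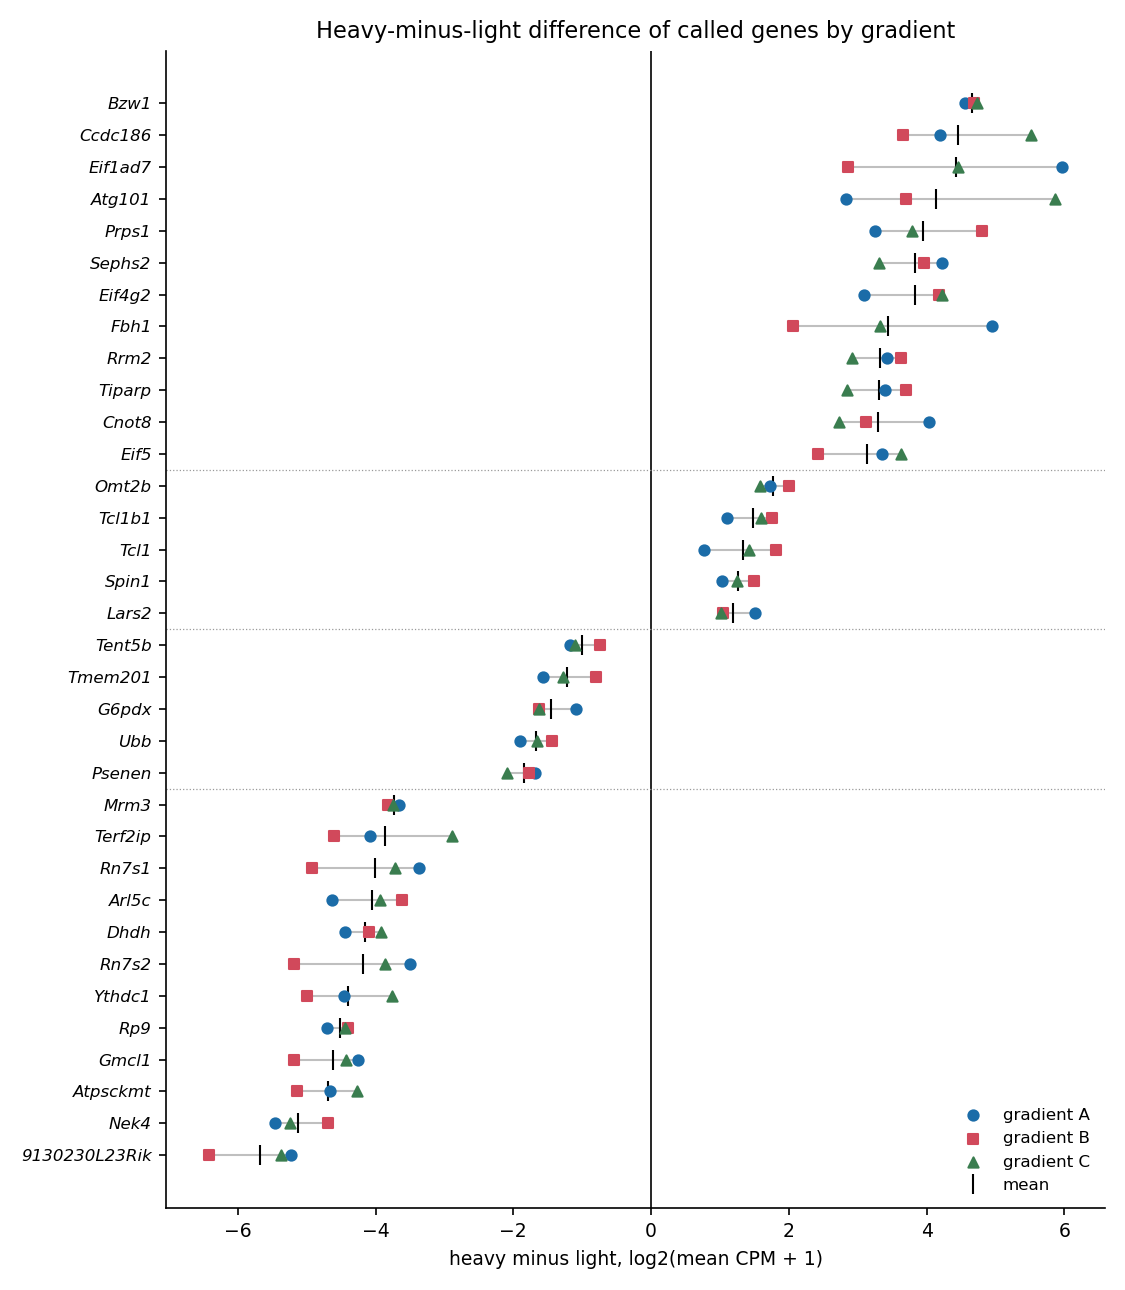
Heavy-minus-light difference (horizontal axis, log2 scale) of the 34 called genes named for their size or level, 1 row per gene, with 1 point per gradient and a bar at the mean. From top to bottom, the first blocks are the 12 largest and the 5 most abundant heavy calls. Below them are the 5 most abundant and the 12 largest light calls. Genes had to have the same sign in all 3 gradients, so the points of a gene lie on 1 side of 0 by choice. The outer blocks were chosen for large differences, so the abundant genes have smaller ones by choice too. The spreads of the abundant genes are mostly narrower.

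The 12 heavy calls with the largest differences had values between 3.14 and 4.66, and all 12 had their highest mean share in fraction 10. Several encode factors of translation itself. Eif4g2, which encodes a scaffold of cap-independent initiation, had 920, 381 and 658 CPM on the heavy and 107, 20.1 and 34.4 on the light side (3.83 ± 0.46, adjusted p = 0.0108). Eif5, the GTPase activator that completes start codon selection, had 667, 339 and 636 CPM against 64.5, 62.0 and 50.4 (3.14 ± 0.44, adjusted p = 0.0218). Bzw1, a relative of Eif5 that competes with it, had 122, 152 and 331 CPM against 4.23, 4.94 and 11.5 (4.66 ± 0.79, adjusted p = 0.0407). Bzw1 did not pass in the fit of genes with at least 100 CPM (adjusted p = 0.113), and it lay just above that level. Eif1ad7, one of the 2-cell copies of the initiation factor Eif1a, had 467, 219 and 379 CPM against 6.48, 29.3 and 16.3 (4.43 ± 0.74, adjusted p = 0.0398). The heavy side of each was well above the light side in every gradient, though the size of the gap varied, for Eif1ad7 from 2.86 in gradient B to 5.97 in gradient A.

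Other genes in this group serve nucleotide supply, signalling and RNA decay. Tiparp encodes a mono-ADP-ribosyltransferase induced by dioxin. It had 1956, 1464 and 2497 CPM on the heavy side and 185, 112 and 348 on the light side (3.31 ± 0.27, adjusted p = 0.00504), the smallest error of the 12. Rrm2, the small subunit of ribonucleotide reductase, had 233, 274 and 467 CPM against 20.7, 21.1 and 60.7 (3.33 ± 0.53). Prps1, which makes the ribose phosphate donor for nucleotides, had 245, 534 and 383 CPM against 24.8, 18.2 and 26.7 (3.95 ± 0.57). Cnot8, a catalytic deadenylase of CCR4-NOT, had 229, 383 and 205 CPM against 13.0, 43.2 and 29.9 (3.30 ± 0.59, adjusted p = 0.0492). The others were Ccdc186, of dense-core vesicle transport (4.45 ± 0.49), Atg101, of autophagy initiation (4.13 ± 0.68), Sephs2, of selenium metabolism (3.83 ± 0.67), and the DNA helicase Fbh1 (3.45 ± 0.60).

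The list of 2-cell genes, transcribed in the embryo's own first wave, had 34 members tested, 12 of them with at least 100 CPM. The 12 had a median difference of 1.95, 1.53 and 1.47 in gradients A, B and C. Of the 12, 3 were called heavy over all genes and 7 in the smaller fit, and none was called light. Dppa3, a maternal gene also made by the embryo that protects the maternal genome from demethylation, had 1472, 1577 and 2037 CPM on the heavy side and 215, 270 and 430 on the light side (2.52 ± 0.24, adjusted p = 0.00651). Eif4a3l2, an embryonic relative of the helicase Eif4a3, had 698, 532 and 609 CPM against 114, 174 and 96.2 (2.29 ± 0.38). Zscan4d, of the telomere-associated Zscan4 cluster, had 782, 522 and 250 CPM against 28.2, 17.3 and 89.1, a difference of 3.69 ± 0.73 that passed in the smaller fit only (adjusted p = 0.0651 over all genes, 0.003 in the smaller fit). Its values did not overlap, but the gradients spread from 1.48 in C to 4.84 in B. Tcstv1 behaved alike at a smaller size (1.33 ± 0.31, adjusted p = 0.0977 and 0.0112). The median of the 34 members was 1.97, and 1.19 once the trend on GC content was removed. Members of the Zscan4, Tcstv, Eif1ad and Usp17l groups are near-identical copies, so counts for single members are uncertain.

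The Obox family of homeobox genes, which act in the first genome activation, was led by Obox5. Its heavy side had 3112, 2543 and 5277 CPM and its light side 852, 495 and 1270 (2.09 ± 0.17, adjusted p = 0.00504), with the highest values of both sides in gradient C. Of the 8 members tested 1 was called, and 6 were positive in all 3 gradients, as were 1742 of all 9889 genes tested. The median of the 8 was 1.47. Once the trend on GC content was removed it was 0.45 over members with a reference transcript, and -0.34, 1.33 and 0.36 in gradients A, B and C. Obox1 (0.47 ± 0.30, adjusted p = 0.391) and Obox2 (0.56 ± 0.58, adjusted p = 0.613), the other members with at least 100 CPM, overlapped between the sides. The members are similar in sequence, which makes their separation uncertain.

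Poly(A) tail shortening and the cell cycle were the other lists with a median above 0.7 in every gradient among members with at least 100 CPM, beside histones, splicing factors, chaperones and the Tcl1 family. Of the 8 such members of CCR4-NOT and its partners, 2 were called heavy over all genes and 4 in the smaller fit, none light, with medians of 1.43, 1.51 and 1.69. Btg4, the adaptor that brings CCR4-NOT to maternal transcripts, had 2726, 3216 and 4359 CPM on the heavy side and 1009, 521 and 1852 on the light side (1.76 ± 0.27, adjusted p = 0.0291), and was highest in fraction 10 in all 3 gradients. Cnot7, a paralog of Cnot8, passed in the smaller fit (1.96 ± 0.49, adjusted p = 0.105 and 0.0181).

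The cell cycle list had 16 members with at least 100 CPM, with medians of 1.47, 1.54 and 0.79. Among these 2 were called heavy over all genes, Ccnb1 and Btg4, and the smaller fit called 8 heavy and 2 light. Ccnb1, the mitotic cyclin B1, had 1401, 2069 and 1806 CPM against 545, 501 and 582 (1.68 ± 0.22, adjusted p = 0.0153). The heavy calls of the smaller fit also held Ccna2 (2.33), Ccnb2 (2.10), Cdc20 (1.13), Mad2l1 (2.39), Plk4 (1.75) and the inhibitor of the anaphase-promoting complex Fbxo43 (4.48). Its light calls were the phosphatase Cdc25b (-1.04) and the mitotic kinase Plk1 (-1.46). The list is therefore mixed in direction, and the securin Pttg1, its most abundant member, was spread over both sides (0.37 ± 0.12, adjusted p = 0.141).

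**Figure D3:**
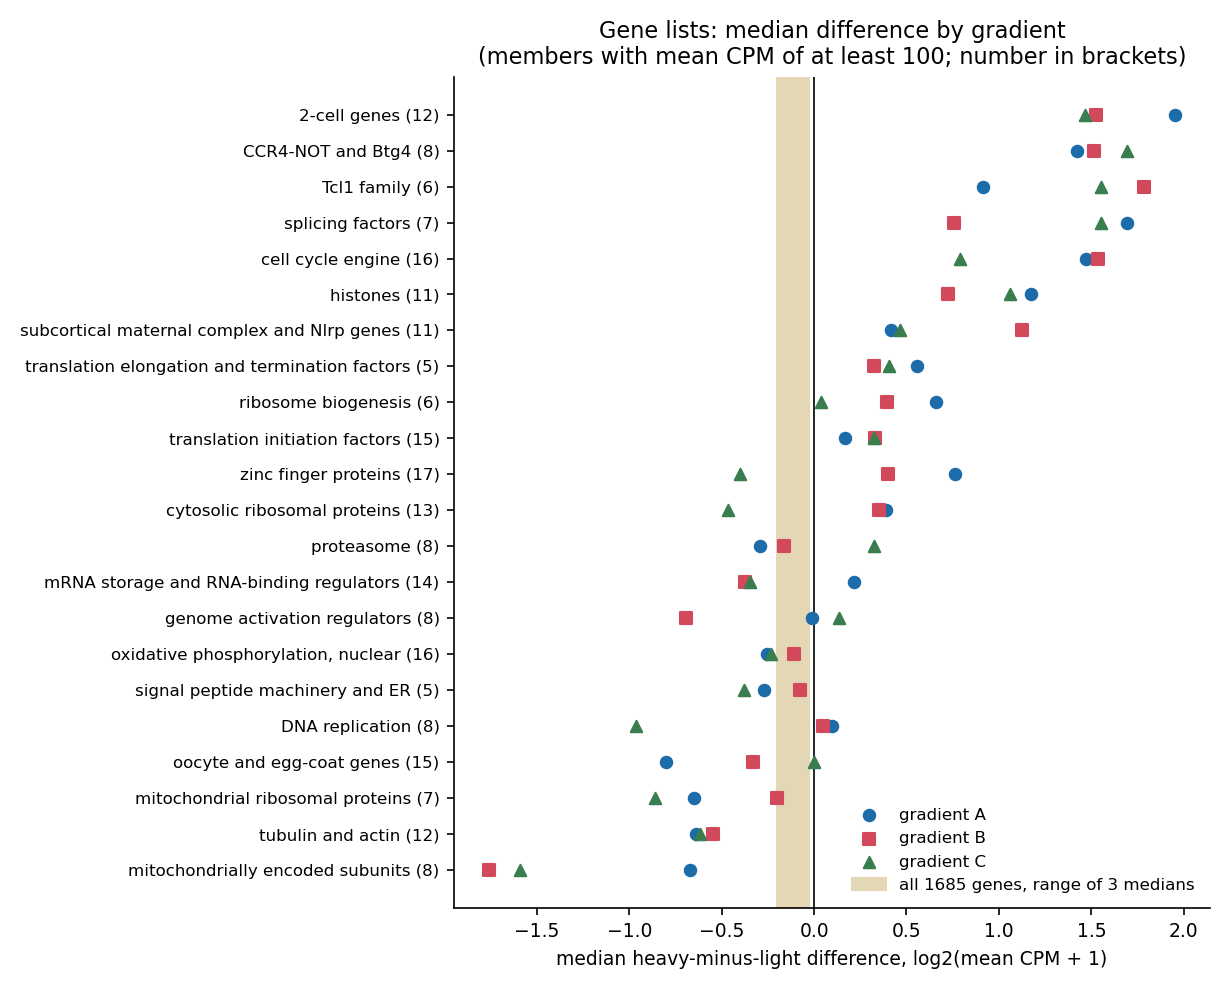
Median heavy-minus-light difference (horizontal axis, log2 scale) of 22 gene lists, 1 point per 2-cell gradient, over members with a mean of at least 100 CPM, whose number is in brackets; the band spans the 3 medians of all 1685 such genes. The 2-cell genes, the deadenylase list, the Tcl1 family, splicing factors, cell cycle genes and histones lie to the right of 0.7 in all 3 gradients. Mitochondrially encoded subunits lie furthest to the left in gradients B and C, and oocyte and egg-coat genes in gradient A (-0.80 against -0.67).

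H3f3b, which encodes the replacement histone H3.3, had 1959, 1364 and 2037 CPM on the heavy side and 300, 240 and 244 on the light side (2.75 ± 0.24, adjusted p = 0.00516), with no overlap. The smaller fit called 4 of the 11 histone genes with at least 100 CPM heavy and none light: H3f3b, its sister gene H3f3a (1.51), H2az1 (2.36) and Cenpa (2.25). The other 7 did not pass, among them the variant H2az2 (adjusted p = 0.225 in the smaller fit), the oocyte linker histone H1f8 (0.17) and the clustered H4c3 (-0.84). Over all 52 histone genes tested the median was 0.25, -0.39 and -0.02.

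Of 83 cytosolic ribosomal protein genes tested 1 was called, Rplp0, beside 1.2% of all genes tested. Rplp0 had 3141, 2889 and 2541 CPM on the heavy side and 958, 1101 and 1218 on the light side (1.39 ± 0.18, adjusted p = 0.0151). Over the 13 such genes with at least 100 CPM the median was 0.39, 0.35 and -0.46, with the sign of gradient C opposite to the others. Of the 13 the smaller fit called 1 heavy and 2 light, among them Rpl17 (-1.54). Over all genes in that fit 13.6% were called heavy and 14.8% light. Rpl41 was level between the sides, with 462, 410 and 352 CPM against 474, 395 and 299 (0.08 ± 0.29, adjusted p = 0.889). These genes have many processed copies in the genome, which can take or lend reads. The 13 had a median of 25.1% of their summed CPM in fraction 1, against 4.7% for all genes with at least 100 CPM.

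Eif5a, which helps ribosomes through hard peptide bonds, was called heavy, with 1189, 1784 and 1006 CPM against 331, 303 and 246 (2.14 ± 0.26, adjusted p = 0.0117). Of the 15 initiation factors with at least 100 CPM the smaller fit called 4 heavy and none light, Eif4g2, Eif5, Eif1 (1.28) and the eIF4E-binding repressor Eif4enif1 (1.56). Eif6, a factor of the large ribosomal subunit and the most abundant of the list, overlapped between the sides (0.12 ± 0.17, adjusted p = 0.718). Of the 5 elongation genes the smaller fit called Eif5a and Eef2k heavy and Eef2 and Eefsec light. Eef2k, the kinase that inhibits elongation, had a difference of 1.29 ± 0.31 and its substrate Eef2 one of -1.29 ± 0.32, and neither passed over all genes (adjusted p = 0.0991 and 0.105).

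The splicing list had 7 members with at least 100 CPM, and the smaller fit called Hnrnpa1 (2.98), Hnrnpc (3.09) and Sf3b5 (1.52) heavy and none light. Of 3 chaperones at that level it called Hsp90aa1 (2.61) and the mitochondrial Hspa9 (2.79) heavy and the co-chaperone Dnajb1 light (-1.11). The maternal complex of the egg cortex and the Nlrp genes gave 3 heavy and 1 light among 11. Zbed3, a member of that complex, was the transcript with the highest CPM of the list and nearly even: 26147, 26312 and 24691 CPM on the heavy side against 21527, 21435 and 18928. The difference of 0.32 ± 0.06 passed the p (adjusted p = 0.0432) but not the size required for a call. Padi6, another member, was called light in the smaller fit (-1.09).

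**Figure D4:**
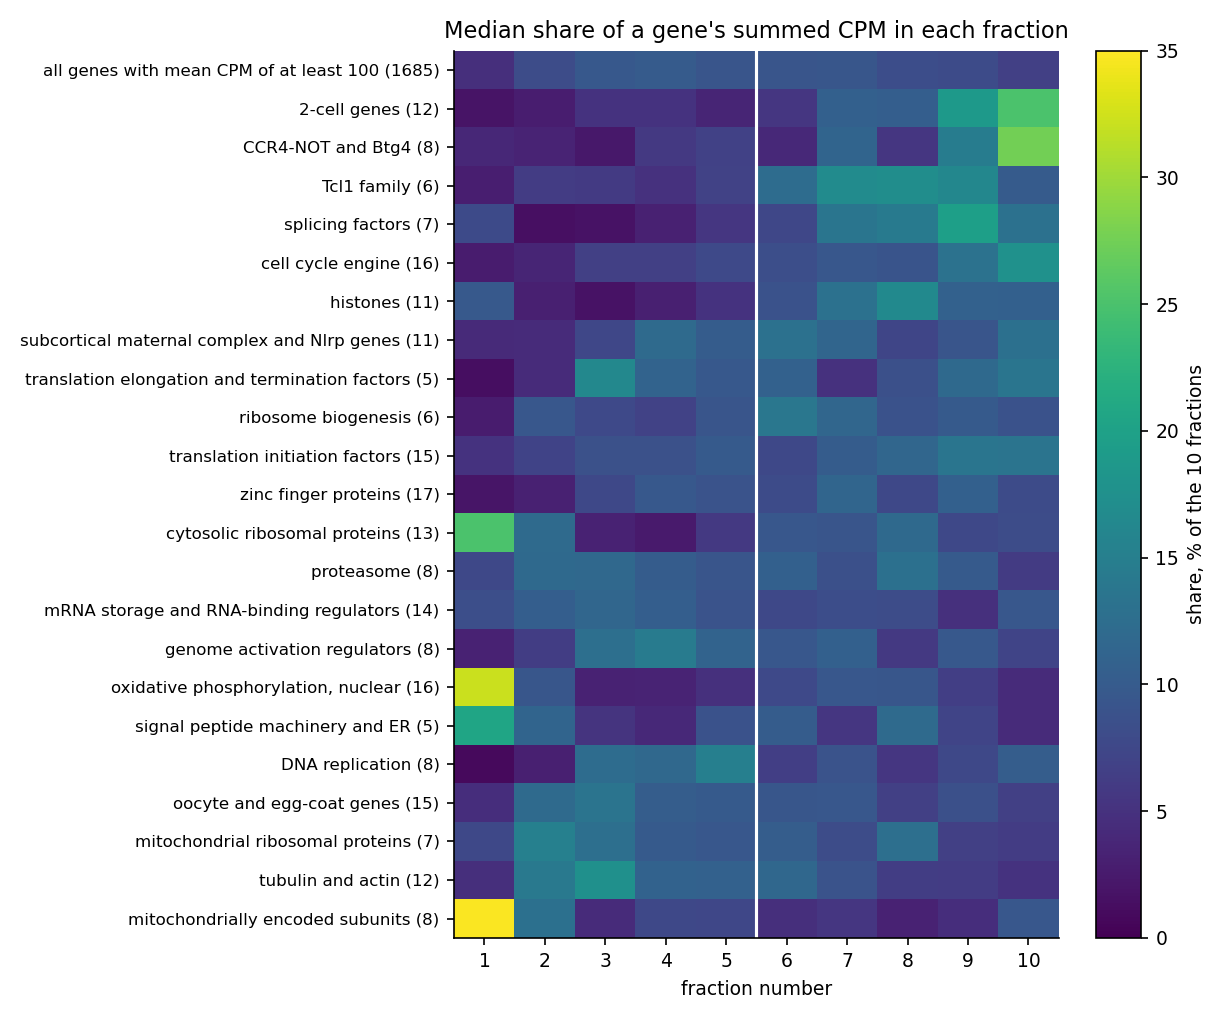
Median share of a gene's summed CPM (colour, percent) in fractions 1 to 10 (horizontal axis) for all 1685 genes with a mean of at least 100 CPM and for 22 gene lists, with the number of genes in brackets and the white line between the light and the heavy side. The 2-cell genes and the deadenylase list reach their highest shares in fraction 10, the Tcl1 family in fraction 8, and respiratory chain genes, ribosomal protein genes and mitochondrially encoded subunits in fraction 1.

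On the light side the most abundant call was Ubb, a polyubiquitin gene. It had 10818, 13477 and 9876 CPM on the light side and 2892, 4982 and 3140 on the heavy side (-1.66 ± 0.11, adjusted p = 0.00356). In fraction 2 it reached 28069, 32577 and 21818 CPM, the peak of all 3 gradients. Reads of Ubb may be shared with its pseudogene Ubb-ps and with Gm13394, which were called light too. G6pdx, the first enzyme of the pentose phosphate pathway, had 4130, 4617 and 4192 CPM against 1949, 1501 and 1351 (-1.45 ± 0.16) and peaked in fraction 3. Tmem201, of the inner nuclear membrane, had 4063, 3744 and 3947 CPM against 1368, 2157 and 1626 (-1.21 ± 0.17). Tent5b, a non-canonical poly(A) polymerase, had 5608, 4590 and 5807 CPM against 2488, 2746 and 2709, a difference just past the size of 1 that a call needs. Psenen, a subunit of gamma-secretase, had 4519, 3761 and 4893 CPM against 1400, 1099 and 1151 (-1.85 ± 0.15) and 14359, 11086 and 15511 CPM in fraction 1. No values overlapped between the sides in these 5 genes.

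Izumo1r, which encodes the egg's receptor for sperm Izumo1, had 2212, 1994 and 1789 CPM on the light side and 752, 765 and 834 on the heavy side (-1.35 ± 0.19, adjusted p = 0.0217). Of 15 genes of oocyte growth and fertilization with at least 100 CPM the smaller fit called 4 light, Izumo1r, the zona pellucida genes Zp3 (-1.43) and Zp1 (-1.57) and the messenger RNA-masking protein gene Ybx2 (-1.23), and 1 heavy, the RNA-binding regulator Dazl (1.86). The growth factor gene Bmp15 overlapped (-0.08 ± 0.26, adjusted p = 0.88). The list's median was -0.80, -0.33 and 0.00, so gradient C did not share its direction. Of 12 tubulin and actin genes 4 were called light in the smaller fit and none heavy, among them Actb (-1.21) and Tubb2a (-1.63), with medians of -0.64, -0.55 and -0.62. The ferritin genes Fth1 (-1.81) and Ftl1 (-1.65), the dioxygenase gene Tet3 (-1.17) and the transcription factor gene E2f1 (-1.24), chosen after their values were seen, were called light over all genes.

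The 12 largest light calls, with differences from -5.68 to -3.74, all peaked in fraction 1. Rn7s1 and Rn7s2 are genes of the 7SL RNA, the scaffold of the signal recognition particle. They are copies of each other, so the division of reads between them is uncertain. Rn7s2 had 8927, 13141 and 9301 CPM in fraction 1 and no more than 294 in any other fraction. Its light side had 1849, 2697 and 1944 CPM and its heavy side 162, 73.4 and 133 (-4.18 ± 0.37, adjusted p = 0.00516). Rn7sk, the 7SK RNA that holds the elongation factor P-TEFb, had 352, 408 and 417 CPM on the light side and at most 48.0 on the heavy side (-3.38 ± 0.50). For the 3 RNAs the median share in fraction 1 was 90.3%. In the transcriptomes Rn7s2 was at 0.63 ± 0.27 CPM (SD, n = 4 pools).

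Nek4, a kinase of the NIMA family, had 647, 411 and 373 CPM on the light side and 13.7, 15.0 and 8.87 on the heavy side (-5.13 ± 0.58, adjusted p = 0.0105). Ythdc1, the nuclear reader of N6-methyladenosine, had 433, 330 and 171 CPM against 18.8, 9.33 and 11.7 (-4.40 ± 0.65, adjusted p = 0.0255). Terf2ip, the shelterin subunit Rap1, had 1484, 839 and 360 CPM against 86.6, 33.6 and 47.6 (-3.86 ± 0.46, adjusted p = 0.0108). The light values of all 3 were highest in gradient A and lowest in C, and all were above every heavy value. The others of the 12 were 9130230L23Rik (-5.68), Atpsckmt (-4.69), Gmcl1 (-4.62), Rp9 (-4.52), Dhdh (-4.16), Arl5c (-4.06) and Mrm3 (-3.74), and Gmcl1 and Rp9 did not pass in the fit of genes with at least 100 CPM (adjusted p = 0.0753 and 0.111).

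These calls rest on the shallowest libraries. When fractions 2 to 5 stood for the light side, 1 of the 22 light calls that peaked in fraction 1 was still called and 11 changed sign, among them Rn7s2 (0.38). All 44 light calls that peaked in fractions 2 to 5 were still called light, as were 48 of the 53 heavy calls on their side. The 22 had a median of 19.6 CPM in the transcriptomes and 239 in the fractions.

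Mitochondrially encoded subunits were placed in a list after the data were seen. All 13 were tested, and 12 were negative in all 3 gradients, as were 2508 of all 9889 genes tested. Of the 13, 1 was called light over all genes, and the smaller fit called 6 of the 8 with at least 100 CPM light and none heavy. Their median difference was -0.67, -1.76 and -1.59, and the 8 had a median share of 34.8% in fraction 1. CYTB, cytochrome b, had 2409, 1281 and 4763 CPM on the light side and 1354, 580 and 1610 on the heavy side (-1.18 ± 0.19, adjusted p = 0.0375). The light value of gradient B was below the heavy values of A and C, so the sides overlapped across gradients and differed within each. Nuclear genes of the same complexes were level at the median (-0.25, -0.11 and -0.23 over 16 genes), and among them Atp5g2 was called light (-2.65 ± 0.31, adjusted p = 0.0108) over all genes. The smaller fit called 3 of the 16 light, Atp5g2, Atp5g1 (-1.43) and Ndufb11 (-1.75), and 1 heavy, Atp5b (1.19). Ribosomal 18S RNA made up 4.25% to 6.3% of the reads of fraction 1 and 0.445% to 6.43% of the other fractions, and differed little between the sides (0.15 ± 0.05, adjusted p = 0.174).

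Heavy and light calls differed in properties that the call did not use. The heavy calls had a median GC content of 46.0% over their reference transcript and the light calls one of 55.1%, against 50.6% for all genes tested. Across genes with at least 100 CPM the Spearman correlation of GC content with the difference was -0.379, -0.382 and -0.399 in gradients A, B and C (1629 genes, all from the same 30 libraries). In the group lowest in GC, 36.0% to 48.0%, the median difference was 0.99, 1.09 and 0.87, with 29 heavy and 9 light calls. In the group highest in GC it was -0.60, -0.60 and -0.77, with 3 heavy and 26 light calls. With the trend on GC content removed, 101 of 9190 genes were called, 72 of them among the 119. The part of GC content in the results was not tested. Coding length showed no such relation: its correlation with the difference was -0.0129, -0.0446 and 0.00386, and the median coding length was 952.5 bases for heavy calls, 1041 for light calls and 1374 for all genes tested.

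**Figure D5:**
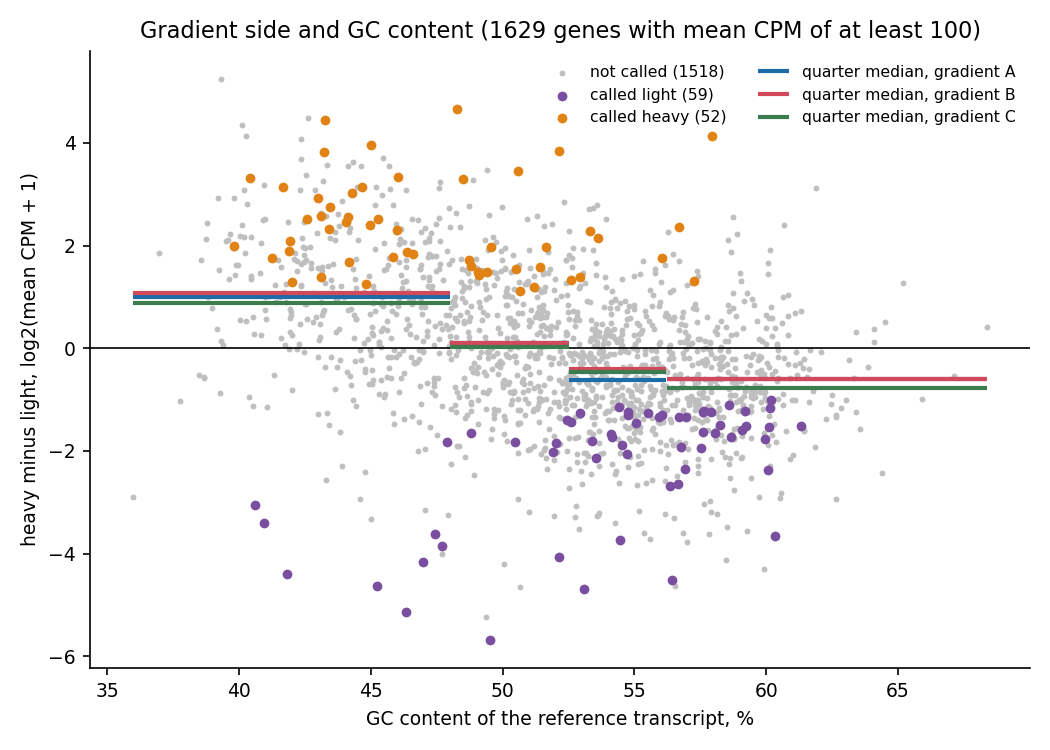
Heavy-minus-light difference (vertical axis, log2 scale, mean of 3 gradients) against the GC content of the reference transcript (horizontal axis, percent) for 1629 genes with a mean of at least 100 CPM, with called genes coloured; horizontal lines are the medians of each gradient in 4 equal groups by GC content. The medians fall from 0.99, 1.09 and 0.87 in the lowest group to -0.60, -0.60 and -0.77 in the highest, and heavy calls lie mostly to the left.

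The sides also differed in the CPM of a transcript in the gradient libraries relative to the whole-embryo pools. Ribosomal 18S RNA made up 0.0409% to 0.0558% of the reads of the pools and at least 0.445% in every fraction library. The ratio therefore compares shares of reads in libraries of unlike content, not amounts of a transcript. Of the 53 heavy calls 39 had a higher CPM in the transcriptome pools than on average in the fractions, while 2 of the 66 light calls did, and 437 of all 1685 genes with at least 100 CPM. The median log2 ratio of transcriptome to fractions was 0.89 for heavy calls, -3.44 for light calls and -1.40 for all genes with at least 100 CPM, the level of every called gene. Tent5b had a mean of 34.0 CPM in the transcriptomes and one of 3991 over the fractions, and Slc6a9, a glycine transporter gene chosen after its values were seen, 8.11 ± 2.12 and 1617. Mphosph6, an exosome cofactor gene chosen likewise, went the other way, with 11070 ± 1448 in the transcriptomes and 807 over the fractions. Over genes with at least 100 CPM the Spearman correlation of this ratio with the difference was 0.487 to 0.521. The fraction mean enters both measures, and the part of the ratio in the results was not tested.

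Against the zygote, 0 of 12633 genes differed in their heavy-minus-light difference at the threshold (0%), while 1359 had an unadjusted p under 0.05 with limma. Rplp0 came closest among the named genes. Its differences were -1.44, -0.92 and -1.58 in the zygote gradients and 1.71, 1.39 and 1.06 in the 2-cell gradients, a change of 2.70 ± 0.33 (adjusted p = 0.103). It was called when only genes with at least 100 CPM, or only these 2 stages, entered the fit. CYTB went the other way, from 1.74, 1.61 and 1.92 to -0.83, -1.14 and -1.56 (-2.94 ± 0.54, adjusted p = 0.163), and was called with only these 2 stages. Across the 8 mitochondrially encoded genes with at least 100 CPM the medians were 1.15, 0.90 and 1.79 in the zygote and -0.67, -1.76 and -1.59 in the 2-cell embryo. Members of these lists were kept by their level in the 2-cell fractions, and a gene with few reads in the zygote has a difference near 0 there from the pseudocount, as Eif1ad7 did (-0.04, -0.02 and 0), so no zygote median is given for the 2-cell genes. The CCR4-NOT list was on the heavy side at both stages, with 1.95, 2.02 and 2.15 in the zygote. So were the Tcl1 family (1.57, 1.92 and 2.07), the cell cycle list (1.35, 1.14 and 2.08) and splicing factors (1.06, 1.12 and 1.87). Histones were not (-0.47, -0.13 and -0.07). Of single genes, Obox5 (3.90, 5.90 and 5.10), Omt2b (2.34, 2.28 and 3.11) and Tcl1 (1.70, 2.23 and 2.07) were heavy in the zygote too, so their heavy placement was not particular to the 2-cell embryo.

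Against the 4-cell embryo 128 of 12290 genes were called (1.04%), 90 with a higher difference in the 2-cell embryo (0.732%) and 38 with a lower one (0.309%). The count rests on pooling the spread of 3 stages and on all gradients: with only the 2 stages in the fit it was 0, with 1494 at an unadjusted p under 0.05, and without 2-cell gradient A, B or C it was 2, 1 or 2. Zbed3 had the lowest adjusted p of the named genes, going from 0.28, 0.30 and 0.38 in the 2-cell gradients to -1.65, -1.87 and -1.39 in the 4-cell gradients (1.96 ± 0.15, adjusted p = 0.00228). Tcl1 went from 0.77, 1.82 and 1.43 to -1.89, -1.02 and -0.74 (2.55 ± 0.36, adjusted p = 0.0286), Omt2b from 1.72, 2.00 and 1.59 to -0.79, -0.34 and -0.07 (2.17 ± 0.35, adjusted p = 0.0364), and Obox5 from 1.87, 2.36 and 2.05 to -4.52, -3.02 and -1.12 (4.98 ± 0.86, adjusted p = 0.0373). Hsp90aa1 went from 3.19, 2.81 and 1.82 to -1.34, -2.01 and -1.04 (4.07 ± 0.58, adjusted p = 0.0286). In each of these the 2-cell and 4-cell values did not overlap, but Zbed3 alone of them was still called whichever 2-cell gradient was left out, and the calls of Tcl1, Omt2b, Obox5 and Hsp90aa1 were lost each time. The list medians of the 4-cell gradients were -0.65, -1.67 and -0.24 for CCR4-NOT and -1.95, -0.62 and -0.24 for the cell cycle. For the Tcl1 family they were -5.37, -0.83 and -0.63. All of these were below the 2-cell medians given above. List members were kept by their level in the 2-cell fractions alone, and the part of that choice was not tested. Other lists were above their 2-cell medians, such as cytosolic ribosomal protein genes (0.73, 0.76 and 0.76) and nuclear respiratory chain genes (0.15, 0.35 and 0.34). Over all 1685 genes with at least 100 CPM the 4-cell medians were -1.07, -0.36 and -0.18.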

How the data were processed

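Ribosome fractionation RNA-seq libraries of 2-cell embryos (30 fractions, 4 transcriptome pools) were taken from 1 deposited table of CPM values for 15854 symbols and 272 libraries. Per the submitters' processing notes, reads were trimmed with Trim Galore 0.6.7, checked with FastQC, aligned with HISAT2 2.2.1 to GRCm39 and counted with featureCounts 2.0.1, and edgeR is named too; the steps were not otherwise described in the sources used here. Divided by the worth of 1 read, 100% of the CPM values the authors deposited came out whole within 0.05 reads. Fraction 7 of gradient B was left out of the count models, so the heavy side of that gradient lacks this fraction there. The effect of leaving it out was not tested. The 9 columns recorded as a signal are deposited CPM columns whose sums repeated symbols carry past 1 M; they were used as CPM. Of 76 groups of symbols with identical values (159 symbols) 1 symbol each was kept, leaving 15771. Columns were tied to samples by title; the 4 columns of 2-cell transcriptomes carry letters E to H where the titles have A to D, so they match no single sample and were used as the group of that stage.

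Side means (fractions 6 to 10, fractions 1 to 5) were tested as log2(mean CPM + 1) with limma 3.58.1 (R 4.3.3; lmFit, eBayes with trend), with the gradient letter as a block, for genes with CPM of at least 1 in 3 of the 6 means. A call needed a Benjamini-Hochberg adjusted p under 0.05 and a difference of at least 1. The pairing comes from the labels, where a letter runs through all 10 fractions of a gradient; deviations of the 2 sides of a letter from their side means correlated weakly across genes (r = 0.00712, 0.0619 and 0.0616). Differences between stages were tested in 1 fit of the zygote, 2-cell and 4-cell gradients. Scripts were tested on simulated data. Intervals are standard errors; amplified reads carry no molecular identifiers, so depth speaks of reads only. Fold differences on this scale understate those of low genes.

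Named genes are the 12 largest calls on each side with at least 100 CPM and the same sign in all gradients, the 3 members of each list with the highest mean CPM, and the 5 largest calls per direction of each stage comparison with at least 100 CPM and no overlap; exceptions are stated. The members, lists and tests were chosen with earlier results of these data known. Of the 15771 symbols 13696 matched a GENCODE vM21 transcript (GRCm38, not the build of the submitters), 255 through a synonym. Alternatives covered the pairing, pseudocount, filter, fractions per side, scaling, GC content, edgeR 4.0.16 and DESeq2 1.42.0 on the recovered counts, and each gradient left out. Some items are not reported here.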

Additional observations from a re-analysis of the deposited data

Results flagged for a closer look

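The heavy-minus-light difference of 128 genes differed between 2-cell and 4-cell embryos by a test of that difference itself (limma, adjusted p under 0.05, size at least 1). The 10 named are the 5 largest calls per direction with at least 100 CPM and no overlap between the gradients of the 2 stages. The lack of overlap was therefore a condition of the choice and not a result. Higher in the 2-cell embryo were Lrrfip1 (6.68 ± 1.08 SE, adjusted p = 0.0364), the spindle checkpoint gene Mad2l1 (6.29 ± 0.89, adjusted p = 0.0286), the neuronal-type tubulin gene Tubb3 (6.22 ± 0.65, adjusted p = 0.0145), the histone methyltransferase gene Nsd1 (6.08 ± 1.11, adjusted p = 0.0404) and Pramel13 (5.997 ± 0.92, adjusted p = 0.0364). Lower were the peptidase gene Sppl3 (-5.98 ± 1.13, adjusted p = 0.0435), the proteasome inhibitor gene Psmf1 (-5.87 ± 0.74, adjusted p = 0.0286), the calcium sensor gene Hpcal1 (-5.83 ± 0.91, adjusted p = 0.0364), the autophagy gene Atg9a (-5.37 ± 0.86, adjusted p = 0.0364) and the SNARE gene Vamp8 (-3.32 ± 0.56, adjusted p = 0.0373).

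Tubb3 had 430 ± 137 CPM on the heavy side of the 2-cell gradients (SD, n = 3) and 385 ± 18.1 on the light side, against 1.15 ± 1.24 and 138 ± 49.5 in the 4-cell gradients. Mad2l1 had 766 ± 232 and 155 ± 82.9 CPM against 9.63 ± 11.1 and 103 ± 51.9. Psmf1 had 307 ± 46.3 and 966 ± 156 CPM against 106 ± 56.1 and 9.58 ± 14.2. In these 3 genes 1 side of the 4-cell gradients was close to 0 while the 2-cell embryo had reads on both sides. None of the 10 named genes was still called when 2-cell gradient A, B or C was left out. The same held with a replicate block and with only these 2 stages in the fit.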

How the results depend on the processing

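The count of 119 genes called in 2-cell embryos was between 101 and 167 with fractions 2 to 5 (128) or 3 to 5 (101) as the light side, means of log2 values (102), TMM (113) or quantile (167) scaling, GC trend removed (101), 18S and mitochondrial RNA left out (117) or fraction 10 of gradient B left out (113). It was 2316 with DESeq2, 2892 with the spread shared over all 8 stages, 0 with edgeR (1334 at an unadjusted p under 0.05), 368 with fractions 1 and 2 as the light side, 62 with fractions 8 to 10 as the heavy side, 479 with genes of at least 100 CPM, 7 of 5017 with medians over fractions, 0 of 14940 without a filter (2029 unadjusted), 61 with a pseudocount of 0.1 and 276 with one of 10. Without the replicate block that pairs the sides it was 188. Leaving out 1 gradient gave 48 to 112. The count against the zygote, 0, was 1 with the GC trend removed, 1 with genes of at least 100 CPM and 10 with 2 stages in the fit. The count against the 4-cell embryo, 128, was 74 with the GC trend removed, 0 with 2 stages in the fit, 194 with a pseudocount of 10 and 2 with a replicate block, which leaves Tcl1 and Zbed3. Leaving out 1 gradient gave 1 to 2. The causes were not tested. Of 27 lists with at least 5 members tested, 11 had a positive median in all gradients, and 7 with means of log2 values. Without mitochondrial RNA the list of mitochondrially encoded subunits has no members and no value.

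The 45 named calls kept direction and call in 642 of 984 refits, kept direction alone in 312 and changed sign in 30. With fractions 2 to 5 as the light side the sign changed for Rp9 (0.23), Ythdc1 (0.0926), Rn7s2 (0.38), Dhdh (0.31), Arl5c (0.55), Rn7s1 (0.48), Terf2ip (0.82) and Mrm3 (0.56). With fractions 3 to 5 it changed for 9130230L23Rik (0.16), Nek4 (0.0532), Atpsckmt (0.21), Gmcl1 (0.20), Rp9 (0.72), Ythdc1 (0.69), Rn7s2 (0.94), Dhdh (0.70), Arl5c (0.91), Rn7s1 (1.02), Terf2ip (1.04), Mrm3 (0.77), Rn7sk (0.17) and Psenen (0.35), all highest in fraction 1. With medians over fractions it changed for Ythdc1 (0.15), Rn7s2 (0.0101), Arl5c (0.34), Rn7s1 (0.12), Mrm3 (0.29) and Psenen (0.15), and with fractions 1 and 2 for Tent5b (0.0201) and Tmem201 (0.16). Fraction 1, where 14 of these genes were highest, had the fewest reads; its part was not tested.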

Other observations

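Genes of DNA replication and of the proteasome were called on both sides in the fit of genes with at least 100 CPM. Of all 1685 genes in that fit 13.6% were called heavy and 14.8% light, so calls on both sides were common. The lists below were not tested against that share. Rrm2 (3.33) and the polymerase delta subunit gene Pold3 (1.22) were called heavy, and the licensing factor gene Cdt1 (-1.76) and the polymerase delta subunit gene Pold2 (-1.77) light. Of 8 proteasome genes, Psmb6 of the catalytic core was called heavy (1.46), and Psmd4 (-1.36) and Psmd8 (-1.61) of the regulatory particle light. Of 14 regulators of stored messenger RNA, 2 were called heavy, Dazl (1.86) and Eif4enif1 (1.56), and 3 light, the poly(A)-binding protein gene Pabpc1l (-1.55), the decay factor gene Zfp36l2 (-2.11) and Ybx2 (-1.23). These genes passed in that fit and, apart from Rrm2, not over all 9889 genes.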
